A study of Mus musculus with 2 samples.

Results

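The 5 genes described here, Pcsk1, Pcsk2, Cpe, Pcsk1n and Pam, encode the enzymes that cut and finish prohormones and 1 inhibitor of those enzymes. They were taken by symbol from the 22383 features counted in each library, and all 5 were found. Islet cells were profiled by droplet single-cell RNA sequencing in 2 libraries, 1 per group, each from 150 islets pooled from 4 mice aged 5 weeks. The genotype of the first group is labelled wildtype, and it is called control here. Per the study's methods these were littermates that lacked Cre. The other group, labelled TBL/RBKO, carried Cre recombinase inserted at Ins1 together with loxP-flanked Tbl1x and Tbl1xr1, which encode subunits of a corepressor complex. All mice were on a C57BL/6N background, and the islets of both groups spent a night in culture before the cells were separated. The comparison asks how the messenger RNAs of these enzymes differ between the libraries in each kind of hormone cell. With 1 library per group no difference has a replicate check, so no p-value is given. The intervals are 95% and cover counting error only, not the difference between mice or preparations.

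A peptide hormone is made as an inactive precursor that is cut while it is packed into secretory granules. Proprotein convertases cut after pairs of basic residues, carboxypeptidase E trims the basic residues left at the new ends, and peptidylglycine α-amidating monooxygenase converts a terminal glycine to an amide. In islets, PC1/3 and PC2 together turn proinsulin into insulin, PC2 turns proglucagon into glucagon, and PC1/3 releases GLP-1 from the same precursor where it is present.

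Cells were grouped by the most abundant of insulin (Ins1 plus Ins2), Gcg, Sst and Ppy, at 100 or more unique molecular identifiers (UMIs, tags that mark single captured transcripts) per 10000 UMIs of the cell. Barcodes with over 2500 detected genes and a mitochondrial share under 10% were used, 4747 of 7067 in the control library and 4179 of 5833 in the other. Insulin cells numbered 2877 in the control against 1338 in the library labelled TBL/RBKO. Glucagon cells numbered 1284 and 1546, somatostatin cells 223 and 374, and Ppy cells 259 and 495. Cells with no hormone at that level but with markers of macrophages, other immune cells, stroma or endothelium numbered 95 and 256 and served as background. A further 9 and 170 cells had neither at the levels set and were left unassigned. Levels are given in counts per 1000000 UMIs (CPM), of UMIs other than those of 7 hormone genes and of mitochondrial genes. This scale was used because insulin alone took 49.6% of the UMIs of control insulin cells and 27.9% in the other library.

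Markers of each class were present in both libraries. All 9 markers of insulin cells, all 6 of glucagon cells, all 4 of somatostatin cells and all 3 of Ppy cells stood at 10 CPM or more in their class. The lists include the hormones that set the classes, so part of this was fixed in advance. All 9 insulin markers also reached 10 CPM in control Ppy cells. All 6 glucagon markers did so in Ppy cells of both libraries, and all 3 Ppy markers in every hormone class. In insulin cells the transcription factor Mafa stood at 1112 CPM in the control against 150.1 in the library labelled TBL/RBKO, and the glucose transporter gene Slc2a2 at 758 and 97.1. Macrophage markers summed to 169 and 41.0 CPM in insulin cells and stromal markers to 52.9 and 137. Ductal markers summed to 436 and 1136, of which Krt19 stood at 2.69 and 112. Of the macrophage list 5 of 5 and 1 of 5 markers stood at 10 CPM or more, of the stromal list 1 and 3 of 5, and of the ductal list 2 and 3 of 3, and no marker of these lists was at 0. Their part in the results was not tested. The targeted genes went against the label. Tbl1x stood at 233 CPM in control insulin cells and 616 in the other library, and Tbl1xr1 at 48.1 and 226. The 3′ reads were counted per gene, so the counts cannot tell whether a transcript still held the deleted exons. Cre UMIs numbered 0 in the control against 3250 in the library labelled TBL/RBKO, 3108 of them in insulin cells. The libraries shared 14 barcodes.

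The classes also differed between the libraries in how many cells held several hormones. A second hormone at 100 or more UMIs per 10000 was present in 16.3% of control insulin cells and 60.8% of those labelled TBL/RBKO, where 568 of 1338 held Ppy as the second hormone. In glucagon cells the shares were 59.6% and 20.3%. The median of insulin in hormone-free cells was 65.2 UMIs per 10000 in the control against 13.9 in the other library. The control value is near the threshold of 100, so a second hormone that is insulin can be free RNA there. Insulin cells of the library labelled TBL/RBKO were also deeper, with a median of 38667 UMIs on the scale used here against 21450.

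Pcsk1, which encodes PC1/3, was the member most restricted to 1 class. Its level in control cells was 543 CPM in insulin cells (538 to 549), 106 in somatostatin cells (96.4 to 117), 82.5 in Ppy cells (75.3 to 90.2) and 15.0 in glucagon cells (13.4 to 16.7), against 6.03 in hormone-free cells (3.51 to 9.65). In the library labelled TBL/RBKO the order of somatostatin and Ppy cells was turned. Insulin cells stood at 418 CPM (413 to 424), Ppy cells at 212 (204 to 220), somatostatin cells at 69.7 (64.0 to 75.8), glucagon cells at 18.1 (16.5 to 19.9) and hormone-free cells at 14.7 (11.9 to 18.0). The last of these neighbours overlap in their intervals. Of the 96 Pcsk1 UMIs in hormone-free cells of that library, 79 were in 1 cell. Insulin cells were thus 36.3-fold above glucagon cells in the control and 23.1-fold above them in the library labelled TBL/RBKO, past the 2-fold line that 7.68% and 9.4% of all genes passed in that direction and 7.11% and 8.48% in the other.

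**Figure D1:**
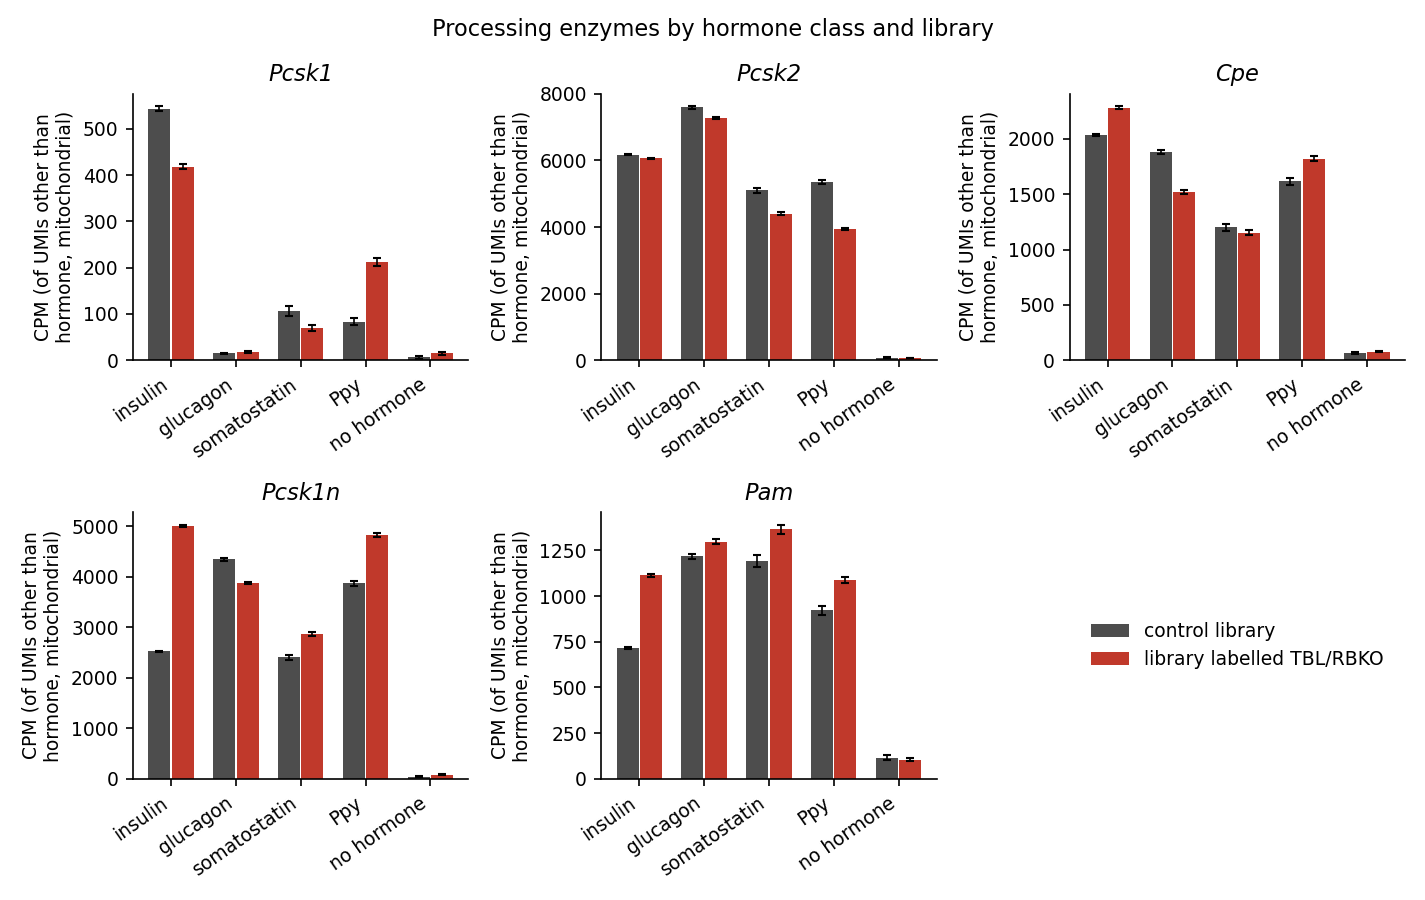
Levels of the 5 genes (vertical axes, CPM of UMIs other than hormone and mitochondrial UMIs, each from 0) in 4 hormone classes and in hormone-free cells, for the control library (grey) and the library labelled TBL/RBKO (red). Bars are sums over all cells of a class and error bars are 95% Poisson intervals for counting error; Pcsk1 stands at 543 and 418 in insulin cells and at 82.5 and 212 in Ppy cells, and Pcsk1n at 2519 and 5007 in insulin cells.

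The share of cells with a Pcsk1 UMI gave the same order once each cell was thinned to 3000 UMIs. In insulin cells it was 74.3% in the control (exact Clopper-Pearson interval 72.6 to 75.9) and 61.0% (58.3 to 63.6) in the library labelled TBL/RBKO. Unthinned, the shares were 95.4% and 95.6%. In glucagon cells the thinned shares were 3.35% and 2.85%, against 3.16% and 1.17% in hormone-free cells, whose intervals of 0.656 to 8.95 and 0.242 to 3.39 hold them. Unthinned, they were 16.7% and 11.6% in glucagon cells, with median depths of 19733 and 18800.5 UMIs per cell, and 14.7% and 7.03% in hormone-free cells at 26900 and 20525 UMIs. The thinned shares thus did not set glucagon cells apart from background, where only 3 cells in each library held a Pcsk1 UMI. The summed levels did so in the control when all glucagon cells were kept, at 15.0 CPM (13.4 to 16.7) against 6.03 (3.51 to 9.65). Control glucagon cells with a single hormone stood at 8.24 CPM, inside the interval of hormone-free cells. Of the Pcsk1 UMIs in glucagon cells, 5 cells held 53 of 318 in the control and 5 held 81 of 473 in the other library. In the other library the summed levels were 18.1 (16.5 to 19.9) and 14.7 (11.9 to 18.0). There 79 of the 96 background UMIs were in 1 cell. If every insulin UMI in glucagon cells had come with its share of Pcsk1 from insulin cells, it would have carried 6.62 CPM of Pcsk1 in the control against 6.85 in the other library.

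Between the libraries, differences are given as the log2 ratio of TBL/RBKO to control relative to the median ratio of all genes tested, which were those at 10 CPM or more in either sum. That median was −0.16 in insulin cells, 0.03 in glucagon cells, −0.01 in somatostatin cells and −0.08 in Ppy cells. In insulin cells the relative ratio of Pcsk1 was −0.21 (−0.24 to −0.19). In the 2409 and 525 insulin cells with a single hormone it was −0.0077, with an interval of −0.04 to 0.02 that holds 0. Expressed as CPM of the UMIs of any gene, where insulin takes a smaller share in the library labelled TBL/RBKO, Pcsk1 stood at 226 and 238, so the direction of the level depends on the scale. The ratio relative to the median stayed below 0 on that scale, at −0.24. In Ppy cells the ratio was 1.44 (1.30 to 1.58), past 2-fold, as were 4.56% of genes tested in that class in that direction. It was −0.60 (−0.78 to −0.41) in somatostatin cells and 0.25 (0.04 to 0.46) in glucagon cells.

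The values in Ppy and glucagon cells differed with the second hormone those cells held, and the cause was not tested. In Ppy cells without a second hormone, Pcsk1 stood at 87.0 CPM in 113 control cells and 125 in 210 cells labelled TBL/RBKO, a relative ratio of 0.58 (0.33 to 0.82). In Ppy cells whose second hormone was insulin it stood at 148 in 42 control cells and 356 in 127 cells of the other library. With glucagon as the second hormone it stood at 46.6 and 117, and with somatostatin at 74.3 and 157. In glucagon cells without a second hormone it was 8.24 and 6.94, with a ratio of −0.28 (−0.70 to 0.14). In the library labelled TBL/RBKO, 67 glucagon cells with insulin held 121 of the 473 Pcsk1 UMIs of the class, at 62.1 CPM. Somatostatin cells without a second hormone, 37 and 124 of them, had 149 and 42.5 CPM, a ratio of −1.79 (−2.22 to −1.37) on 91 and 98 UMIs.

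Pcsk1 lies on chromosome 13 (GRCm39, 75237284 to 75284898, plus strand) and has 14 exons in its canonical transcript. Pcsk1n lies on chromosome X (7786043 to 7790649, plus strand) and has 3. These 2 members passed 2-fold between the libraries in 1 class each, and 30 bases before the start of each are shown for that reason, read from the RefSeq promoter table (GRCm38.p6) and placed by exact match on GRCm39. In Pcsk1 the capitals mark a full cAMP response element (TGACGTCA, its own reverse complement), which begins 78 bases before the RefSeq start. In Pcsk1n they mark a GC box (GGGCGG, searched on both strands), which begins 37 bases before the start. The Pcsk1 stretch, at chr13:75237887-75237916, lies inside the annotated gene, which begins at 75237284. Whether it lies in exons of other Pcsk1 transcripts was not tested. The Pcsk1n stretch is at chrX:7786007-7786036.
Pcsk1: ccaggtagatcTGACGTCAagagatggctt
Pcsk1n: tacagtaggagacagtgGGGCGGgagtggg
In the 250 bases before a start, TGACGTCA was present in 1.55% and GGGCGG in 32.7% of 32851 RefSeq windows. Each 30-base stretch was picked from the 250 bases before its start to hold the most letters of these 2 motifs. Other motifs were searched as well and are not marked. The matches are a description of these letters, and no binding was measured.

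Pcsk2, which encodes PC2, was present in every hormone class and its levels were close. In the control it stood at 7591 CPM in glucagon cells, 6170 in insulin cells, 5354 in Ppy cells and 5101 in somatostatin cells, against 82.6 in hormone-free cells. The library labelled TBL/RBKO gave 7262, 6060, 3951 and 4404, with 58.7 in hormone-free cells, so Ppy and somatostatin cells changed places at the low end. The relative ratio was 0.14 (0.13 to 0.14) in insulin cells, while the level itself was slightly lower there, since the median of all genes was −0.16. In insulin cells with a single hormone the level was higher, at 6146 and 7712 CPM with a ratio of 0.49 (0.48 to 0.50), and in insulin cells under 6000 detected genes the ratio was 0.285. In the 78 and 568 insulin cells with Ppy as the second hormone the level was lower, at 5884 and 4625 CPM. With glucagon it stood at 6577 and 6747, and with somatostatin at 5956 and 6454. In the other classes the relative ratio was −0.09 in glucagon cells, −0.20 in somatostatin cells and −0.36 (−0.38 to −0.34) in Ppy cells. None of these passed 2-fold.

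The number of Pcsk1 UMIs per 1000 Pcsk2 UMIs sets the 2 convertases against each other within a sum and needs no denominator. It says how the classes and libraries differ, not which messenger RNA is more abundant, because 3′ counting and gene structure weigh the genes differently. In insulin cells it was 88.1 (87.2 to 89.0) in the control and 69.0 (68.1 to 69.9) in the library labelled TBL/RBKO. Ppy cells went from 15.4 (14.0 to 16.9) to 53.7 (51.7 to 55.7). Somatostatin cells stood at 20.8 and 15.8, and glucagon cells at 1.97 and 2.50. Restricted to Ppy cells without a second hormone, the values were 17.3 and 35.5, and to those with insulin 28.9 and 96.2.

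Pcsk1n encodes proSAAS, a granule protein from which an inhibitor of PC1/3 is released. In the control it was lowest in somatostatin cells (2406 CPM) and insulin cells (2519), with 3866 in Ppy cells and 4344 in glucagon cells, against 39.0 in hormone-free cells. In the library labelled TBL/RBKO insulin cells were the highest, at 5007 CPM (4989 to 5026). Ppy cells followed at 4824, glucagon cells at 3876, somatostatin cells at 2865 and hormone-free cells at 77.2. The order of insulin and glucagon cells was therefore turned, with insulin cells lower by a log2 difference of −0.79 in the control and higher by 0.37 in the other library. The relative ratio between the libraries in insulin cells was 1.15 (1.15 to 1.16), or 2.22-fold, and 3.67% of the 9739 genes tested had a higher one.

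Pcsk1n was the single member past 2-fold in insulin cells, where 4.64% of all genes tested were 2-fold or more higher and 2.54% lower. In Ppy cells its ratio was 0.40 (0.38 to 0.42), in somatostatin cells 0.26 (0.23 to 0.30) and in glucagon cells −0.19 (−0.20 to −0.18). In insulin cells without a second hormone, Pcsk1n stood at 2231 CPM in 2409 control cells and 3849 in 525 cells of the other library, a ratio of 0.95 (0.93 to 0.96), just under 2-fold. Insulin cells whose second hormone was Ppy stood higher, at 3689 in 78 control cells and 5926 in 568 cells of the other library. In both groups of cells Pcsk1n was higher in the library labelled TBL/RBKO. What their unequal numbers add to the value for the whole class was not tested.

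**Figure D2:**
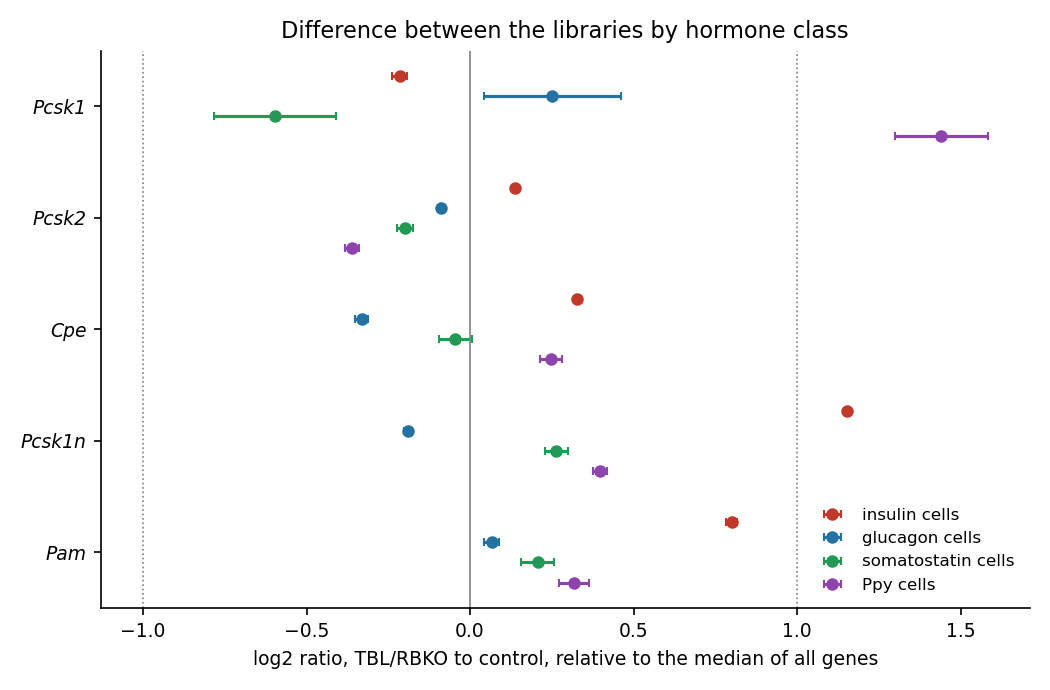
Log2 ratio of the library labelled TBL/RBKO to control, relative to the median ratio of all genes tested (horizontal axis), for the 5 genes in insulin, glucagon, somatostatin and Ppy cells. Points are ratios of summed UMIs, bars are 95% intervals for counting error and the dotted lines mark 2-fold; Pcsk1n in insulin cells (1.15) and Pcsk1 in Ppy cells (1.44) lie beyond them.

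Cpe, which encodes carboxypeptidase E (chromosome 8, GRCm39 65045555 to 65146435, minus strand), was highest in insulin cells of both libraries. In the control it stood at 2036 CPM there, 1882 in glucagon cells, 1617 in Ppy cells and 1200 in somatostatin cells, against 65.9 in hormone-free cells. The library labelled TBL/RBKO gave 2283, 1522, 1820 and 1153, with 78.5 in hormone-free cells, so Ppy cells stood above glucagon cells. The relative ratio was 0.33 (0.32 to 0.34) in insulin cells and −0.33 (−0.35 to −0.31) in glucagon cells, equal in size and opposite in sign. In somatostatin cells it was −0.05 (−0.10 to 0.01), where the interval holds 0. In Ppy cells it was 0.25, but −0.11 (−0.17 to −0.06) in those with a single hormone, so its direction there depended on which cells were kept. In glucagon cells 95.3% of the genes tested had a higher ratio than Cpe.

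Pam, which encodes the amidating enzyme (chromosome 1, 97722839 to 98023399, minus strand), was lower in control insulin cells than in each other hormone class. It stood at 716 CPM there, 922 in Ppy cells, 1193 in somatostatin cells and 1217 in glucagon cells, and the last of these pairs differed by less than its interval. In the library labelled TBL/RBKO it stood at 1115 in insulin cells, 1089 in Ppy cells, 1297 in glucagon cells and 1365 in somatostatin cells. Hormone-free cells had 114 and 105 CPM. Its relative ratio was 0.80 (0.78 to 0.82) in insulin cells, and 6.74% of genes had a higher one. The other ratios were 0.07 in glucagon cells, 0.21 in somatostatin cells and 0.32 in Ppy cells. The gap between insulin and glucagon cells narrowed from a log2 difference of −0.77 to −0.22.

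The difference between insulin and glucagon cells in these ratios was larger than counting error for all 5 members when every cell of a class was summed. It was −0.47 (−0.67 to −0.26) for Pcsk1, 0.23 (0.21 to 0.24) for Pcsk2, 0.66 (0.64 to 0.68) for Cpe, 1.34 (1.33 to 1.36) for Pcsk1n and 0.73 (0.71 to 0.76) for Pam. For Pcsk1 this rests on the ratio of 0.25 in glucagon cells. In cells with a single hormone the difference for Pcsk1 was 0.28 (−0.13 to 0.68), with the sign turned and an interval that holds 0. There it was 0.53 for Pcsk2, 0.70 for Cpe, 1.15 for Pcsk1n and 0.89 for Pam. In glucagon cells 0 of 5 members passed 2-fold, where 0.793% of genes were 2-fold higher and 0.219% lower. In somatostatin cells the count was also 0, against 0.999% and 0.636%, and in Ppy cells 1, Pcsk1, with none lower against 1.48%.

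Insulin cells were also compared at matched insulin share, in 4 bands of insulin UMIs per 10000 UMIs of a cell. These are ranges of a score and not cell types. The edge at 5000 runs through the control cells, of which 1098 lie within 10% of it. From 5000 up there were 1532 control cells and 141 labelled TBL/RBKO, and there all 5 members stood higher in the latter, with relative ratios of 0.50 (0.44 to 0.55) for Pcsk1, 0.56 for Pcsk2, 0.43 for Cpe, 0.77 for Pcsk1n and 1.00 (0.95 to 1.04) for Pam. From 2500 to 5000, with 1100 and 495 cells, Pcsk1 was at 0.01 (−0.02 to 0.05), Pcsk2 at 0.36, Cpe at 0.47, Pcsk1n at 1.26 and Pam at 0.73. From 1000 to 2500, with 82 and 459 cells, Pcsk1 was at 0.54 (0.45 to 0.63), Pcsk2 at −0.02 with an interval just under 0, Cpe at 0.73, Pcsk1n at 1.12 and Pam at 0.40. From 100 to 1000, with 163 and 243 cells, Pcsk1 was at 1.83 (1.60 to 2.07), Pcsk2 at 0.09, Cpe at 1.61, Pcsk1n at 2.58 and Pam at 0.71. The relative ratio of Pcsk1, which was below 0 over all insulin cells, was thus above 0 in 3 bands and near 0 in the other.

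Within the library labelled TBL/RBKO, cells with more insulin held more of both convertases. Pcsk1 stood at 294, 363, 479 and 746 CPM from the lowest band to the highest, and Pcsk2 at 4615, 5282, 7316 and 7796. Cpe ran from 1964 to 2655, Pam stayed between 1099 and 1139, and Pcsk1n went from 5433 in the second band down to 4084 in the highest. In the control Pcsk1 ran from 86.9 through 285 and 540 to 597 in the same order. The lowest control band, 163 cells with a median of 3229 detected genes and 8431 UMIs on the scale used here, had 675 CPM of Cpe and 799 of Pcsk1n but 4556 of Pcsk2. The lowest band of the other library, 243 cells, had a median of 7291 genes, so the 2 lowest bands differ in depth as well.

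**Figure D3:**
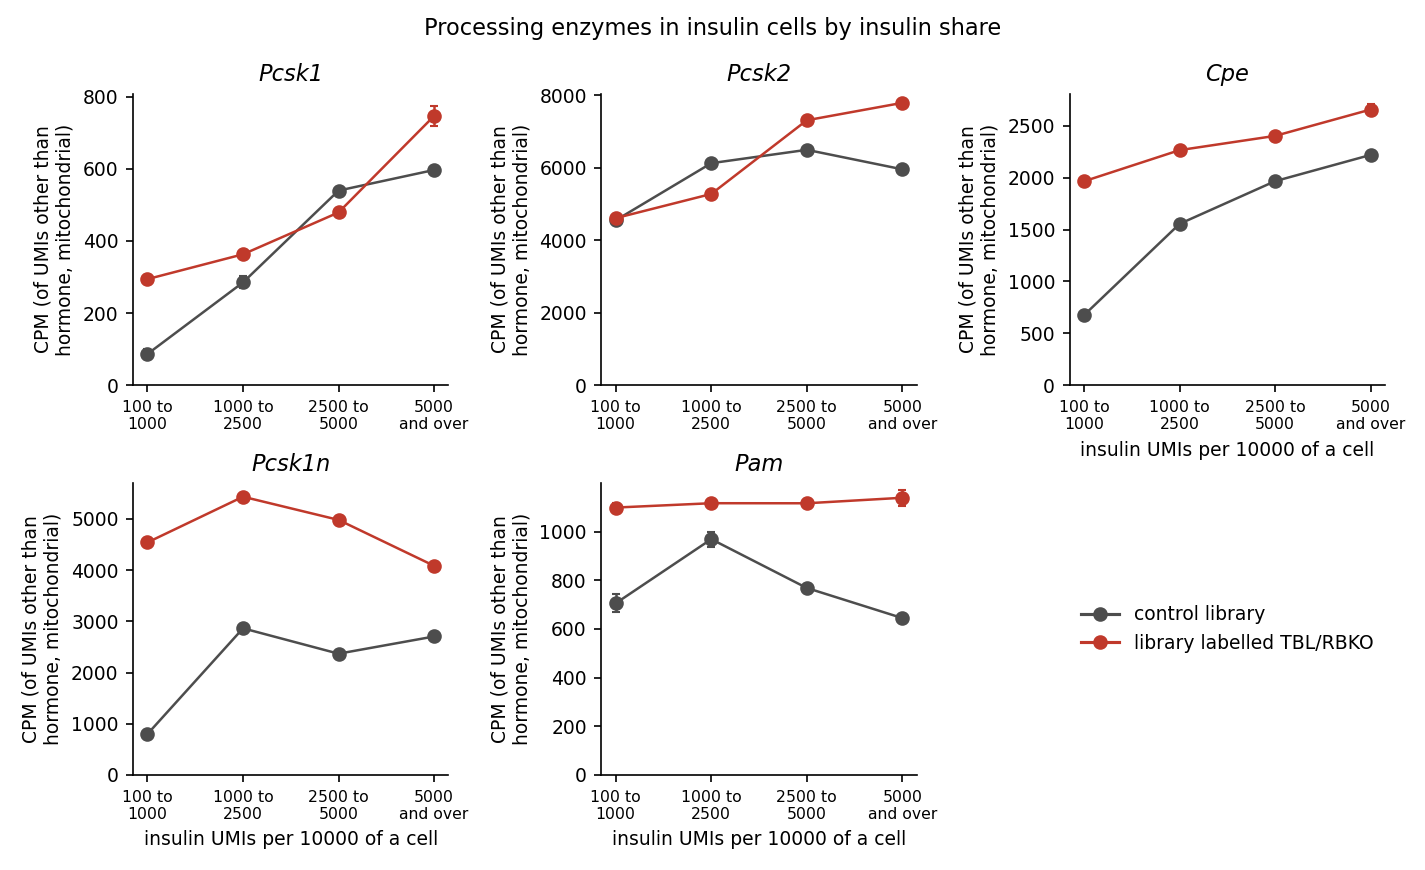
Levels of the 5 genes in insulin cells (vertical axes, CPM of UMIs other than hormone and mitochondrial UMIs, each from 0) in 4 bands of insulin UMIs per 10000 UMIs of a cell (horizontal axes), for the control library (grey) and the library labelled TBL/RBKO (red). Points are sums over the cells of a band and error bars 95% Poisson intervals; Pcsk1 runs from 86.9 to 597 in the control and from 294 to 746 in the other library, and Pcsk1n is above control in every band.

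The spread between insulin cells differed among the members. Per cell and per 10000 UMIs of the scale used here, Pcsk2 had a 5th percentile of 31.3, a median of 59.6 and a 95th percentile of 97.8 in the control. In the library labelled TBL/RBKO the values were 12.9, 51.3 and 147, so both ends lay further out. Its coefficient of variation between cells was 34.5% in the control against 71.2% in the other library, although the latter was deeper. In insulin cells without a second hormone it was 35.6% and 70.4%. For Pcsk1 the coefficients were 59.2% and 95.8%, with medians of 5.21 and 3.19. Cpe was the steadiest member, at 33.8% and 33.9%. Pcsk1n had 52.2% and 57.5% and Pam 56.8% and 63.2%.

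**Figure D4:**
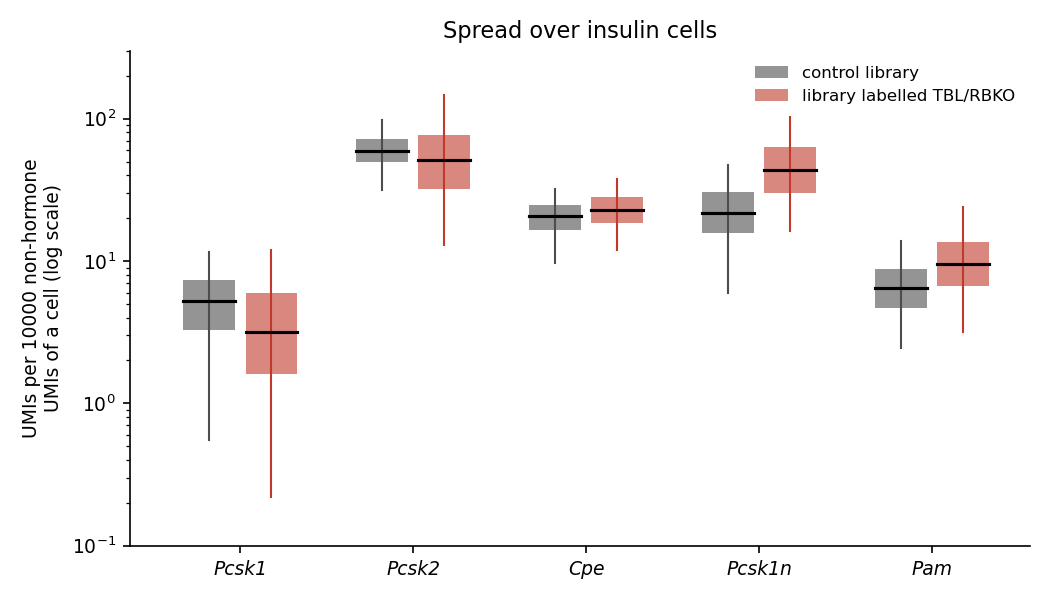
Spread of the 5 genes over insulin cells (vertical axis, UMIs per 10000 UMIs other than hormone and mitochondrial UMIs of a cell, log scale) in 2877 control cells (grey) and 1338 cells of the library labelled TBL/RBKO (red). Black lines are medians, boxes the 25th to 75th percentile and thin lines the 5th to 95th; Pcsk2 spans 31.3 to 97.8 in the control and 12.9 to 147 in the other library, while Cpe hardly differs in width.

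Across insulin cells the closest pair of members was Pcsk1 and Cpe, with a Spearman correlation of 0.34 over 2877 control cells and 0.39 over 1338 cells of the other library. These are descriptions over cells that share a library and a depth. Pcsk2 and Pam had 0.24 in the control against 0.02 in the other library. Over the 8 sums of 4 classes in 2 libraries, and among 4521 genes at 50 CPM or more on average, the genes most like Pcsk1 by Pearson correlation of log2 levels were Gpx2 (0.99), Prkar2b (0.98) and Pck2 (0.98). For Pcsk2 they were Mafg (0.91), Eif4e (0.90) and Slc30a8 (0.90), for Cpe Mapk3 (0.96), Rab1b (0.94) and Cyb5r3 (0.93), for Pcsk1n Zwint (0.99), Tmem184b (0.96) and Txnip (0.95), and for Pam Rgs17 (0.96), Basp1 (0.94) and Nalf1 (0.92). The classes of 1 library share its RNA and depth.

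Of 35 other listed genes of the same pathway 32 could be tested in insulin cells. Of these 0 were 2-fold higher and 2 were 2-fold lower, where the shares of all genes tested were 4.64% and 2.54%, so the list did not stand apart from all genes by these counts. Its relative ratios had a median of −0.04 and a range of −1.51 to 0.72. The 2 were Ero1b, an oxidase of the endoplasmic reticulum that helps form the disulfide bonds of proinsulin, from 1952 to 611 CPM (−1.51, −1.53 to −1.50), and Atp7a, a copper transporter that supplies the amidating enzyme, from 258 to 102 (−1.17, −1.21 to −1.13). In glucagon cells Ero1b had −0.42 and Atp7a 0.04. The highest ratio in insulin cells was that of P4hb, protein disulfide isomerase, from 373 to 550 CPM (0.72), followed by the convertase Furin (0.52). Scg5, which encodes the PC2 chaperone 7B2, was at −0.04 in insulin cells, −0.44 in glucagon cells and −0.66 in Ppy cells.

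The 14 listed subunits and accessory proteins of the proton pump that acidifies granules lay between −0.42 (Atp6ap2) and 0.13 (Atp6v1b2) in insulin cells, with a median of −0.08. None of the 14 passed 2-fold in any of the 4 classes. In insulin cells 4.64% of all genes tested were 2-fold higher and 2.54% lower. In glucagon cells 0 of 32 pathway genes tested passed 2-fold in either direction, with a median of −0.02. There 0.793% of all genes were 2-fold higher and 0.219% lower. In somatostatin cells 1 of 31 was past it, Ero1b at −1.08, where the shares of all genes were 0.999% and 0.636%. In Ppy cells 0 of 32 were 2-fold higher and 2 lower, against 4.56% and 1.48% of all genes. The 2 were Qpct, a glutaminyl cyclase, at −1.11 on 86 and 89 UMIs, and the peroxiredoxin gene Prdx4 at −1.06.

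**Figure D5:**
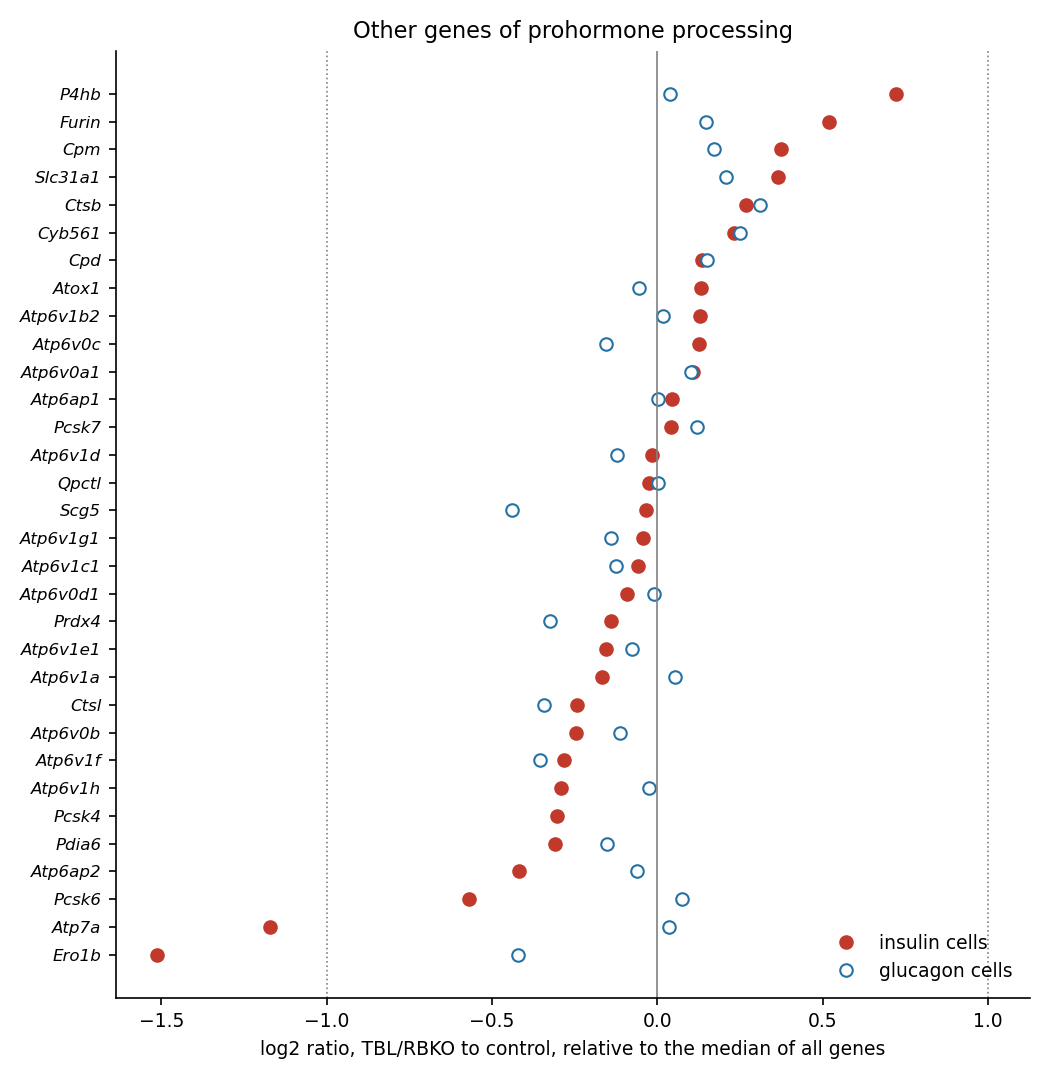
Log2 ratio of the library labelled TBL/RBKO to control, relative to the median of all genes tested (horizontal axis), for the other pathway genes tested in insulin cells (filled red) and, where tested there, in glucagon cells (open blue). Genes are ordered by their value in insulin cells and the dotted lines mark 2-fold; Ero1b (−1.51) and Atp7a (−1.17) lie beyond the lower line in insulin cells and no gene lies beyond either line in glucagon cells.

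The precursors that these enzymes act on differed from each other in their ratios. In insulin cells Ins1 stood at 327729 CPM on the scale used here in the control and at 63193 in the other library, and Ins2 at 862948 and 426033. Among the other hormone genes Iapp had a relative ratio of −0.21, Gcg 0.17, Sst 0.54, Ppy 2.11 and Pyy 2.83. Of 10 listed precursors that are not among the 7 hormone genes, 6 could be tested. Chgb, chromogranin B, went from 1883 to 7991 CPM (2.25, 2.24 to 2.26), and Gast, gastrin, which is amidated by the product of Pam, from 3.88 to 214 (5.95, 5.78 to 6.12) on 294 and 12278 UMIs. Vgf was lower, 31.6 and 11.3 CPM (−1.32). Chga, chromogranin A, had a ratio of 0.98, just under 2-fold, and Scg2 and Nucb2 had −0.02 and 0.32.

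In Ppy cells 3 of 6 precursors tested, Chga, Chgb and Gast, were past 2-fold higher, where 4.56% of all genes tested were. Chga was at 3747 and 15611 CPM (2.14), Chgb at 2321 and 5485 (1.32) and Gast at 1.38 and 235 (7.49, on 8 and 3217 UMIs). In glucagon cells Gast had 4.24 and 11.2 CPM (1.37), with Chga at 0.18 and Chgb at 0.41. In somatostatin cells it had 8.04 and 29.3 CPM (1.88), so that Gast stood above 10 CPM in all 4 hormone classes of the library labelled TBL/RBKO. Hormone-free cells held 0 and 6 Gast UMIs.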

How the data were processed

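The authors deposited 1 matrix of unnormalised UMI counts for each library (Chromium 3′ chemistry), from Cell Ranger 7.1.0 run at standard settings, which also count intronic reads. The submitters' processing notes name GRCm39. The study removed free RNA before its own analysis. These whole-number counts show no sign of such a correction, but this was not tested. Only the deposited counts were used. The barcode filter had no upper limit on genes, so doublets stayed in the main values. Sums of UMIs were compared by exact conditional binomial intervals and levels by exact Poisson intervals, with 1 library per group and no test. The total counts were 241434108 and 185062206 UMIs. Named genes were the 5 members, 35 other pathway genes, 17 precursors, the targeted genes and the 3 genes most like each member. Members and lists were chosen with earlier results of these data known. Positions are from GENCODE release M39, which matched 22317 of 22383 identifiers. RefSeq promoter windows of Cpe and Pam were not used. Software was Python 3.11.15, numpy 2.4.6, scipy 1.17.1, pandas 2.3.3, scanpy 1.11.5 (Scrublet) and matplotlib 3.10.9.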

Additional observations from a re-analysis of the deposited data

Results flagged for a closer look

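For 4 of the 5 members the log2 ratio of TBL/RBKO to control, relative to the median of all genes, had opposite signs in insulin and glucagon cells. It was −0.21 and 0.25 for Pcsk1, 0.14 and −0.09 for Pcsk2, 0.33 and −0.33 for Cpe, and 1.15 and −0.19 for Pcsk1n. With 1 library per group the difference between the classes was not tested beyond counting error. For Pcsk1 the sign in glucagon cells depended on which cells were kept, as the alternatives show.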

How the results depend on the processing

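No paired analysis was possible because each group is 1 library. Sums differ between libraries by preparation and mice as well as by genotype, and these cannot be told apart. Depth limits Pcsk1 in glucagon and hormone-free cells, where few UMIs decide its value. No alternative turned the sign of a member in insulin cells. The values below are log2 ratios relative to the median in insulin cells, in the order Pcsk1, Pcsk2, Cpe, Pcsk1n and Pam, for the settings and members that differed from the main values by more than counting error. With under 6000 detected genes, the study's filter, they were −0.12, 0.285, 0.55, 1.45 and 0.92. With all UMIs in the denominator they were −0.24, 0.11, 0.30, 1.13 and 0.78, and the median of all genes was 0.31 in place of −0.16. With no filter on low counts they were −0.28, 0.073, 0.26, 1.09 and 0.74. In cells with a single hormone Pcsk1 was at −0.0077, Pcsk2 at 0.49, Pcsk1n at 0.95 and Pam at 0.96. With a class set at 1000 UMIs per 10000, and equally without insulin cells under 1000 insulin UMIs per 10000 (an alternative chosen after seeing the data), Pcsk1 was at −0.14, Pcsk2 at 0.21, Cpe at 0.36 and Pcsk1n at 1.17. Without the doublets marked by Scrublet (334 and 231 barcodes with the highest scores, since its own threshold marked 84 and 1) Pcsk2 was at 0.15, Cpe at 0.35, Pcsk1n at 1.22 and Pam at 0.85. With a mitochondrial share under 5% Pcsk1 was at −0.13, Pcsk2 at 0.16 and Pcsk1n at 1.12. With free RNA subtracted Pcsk2 was at 0.15, Cpe at 0.35, Pcsk1n at 1.17 and Pam at 1.00. With the mean of per-cell levels Pcsk1 was at −0.17, Pcsk2 at 0.17, Cpe at 0.37 and Pcsk1n at 1.24.

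The number of members past 2-fold in insulin cells was 1, but 0 in cells with a single hormone and 2 with free RNA subtracted. Among all genes tested, 452 were 2-fold higher and 247 lower of 9739 in the main values. In cells with a single hormone they were 402 and 247 of 9614. With free RNA subtracted, from the members alone, they were 453 and 247 of 9739. In somatostatin cells the number of members was 0, but 1 under 6000 genes and 1 in cells with a single hormone. All genes past 2-fold there, higher and lower, were 99 and 63 of 9910 in the main values. Under 6000 genes they were 56 and 91 of 9853, and with a single hormone 438 and 223 of 9949. In Ppy cells the number of members was 1, but 0 in cells with a single hormone and 0 with a class set at 1000. It was also 0 without cells at 100 or more insulin UMIs per 10000 (chosen after seeing the data). All genes past 2-fold, higher and lower, were 454 and 147 of 9960 in the main values. In these alternatives, in the same order, they were 364 and 121 of 9916, 225 and 61 of 9877, and 276 and 55 of 9963. Genes past 2-fold in insulin cells numbered 699 of 9739 tested, and 3136 of 16947 with no filter on low counts. Pcsk1 UMIs per 1000 Pcsk2 UMIs in control insulin cells were 98.3 under 6000 genes, 98.3 in cells with a single hormone, 89.3 with a class set at 1000 or without cells under 1000 insulin UMIs, and 92.0 without doublets. In the library labelled TBL/RBKO they were 74.0 under 6000 genes, 71.4 without doublets and 68.0 with free RNA subtracted.

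The ratio of Pcsk1 in glucagon cells, 0.25, was reversed under 6000 genes (−0.61), in cells with a single hormone (−0.28), with a class set at 1000 (−0.35), with the mean of per-cell levels (−0.25) and without cells at 100 or more insulin UMIs per 10000 (−0.47). With free RNA subtracted, Pcsk1 in glucagon cells of the library labelled TBL/RBKO fell to 0 and gave no value. The subtracted mean there was 0.375 UMIs per hormone-free cell, above the 0.306 of glucagon cells. Of the 96 UMIs behind that mean, 79 were in 1 cell, so this alternative rests on that cell. The ratio of Cpe in Ppy cells, 0.25, was reversed under 6000 genes (−0.0035), in cells with a single hormone (−0.11) and without cells at 100 or more insulin UMIs per 10000 (−0.082). The cause of these differences was not tested.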
